A study of Macaca mulatta with 9 samples.

Results

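Small antral follicles of rhesus macaques fed a Western-style diet under chronically raised testosterone were compared with follicles of females on a standard diet. The comparison used 6 of the 9 arrays in the series and all 52766 of its 52865 probe sets that were not array controls. The control group held 3 females on the normal, standard diet, and the WSD+T group held 3 females on the Western-style diet (WSD) whose androgen levels were kept chronically elevated. A further 3 females received the Western-style diet alone and were used here only beside the WSD+T arrays. All were young adult females sampled in the early follicular phase, at or near menses. Follicles judged healthy by a clear antrum were pooled per female and ovary, 3.7 ± 0.3 per ovary from 3 ovaries a group (the labels do not say whether that error is an SD or an SE). The follicle wall with its granulosa cells and the cumulus-oocyte complex were lysed together. No group received testosterone on the standard diet, so a difference due to the hormone without the diet cannot be estimated here.

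A small antral follicle encloses an oocyte and its cumulus cells in a wall of granulosa cells, around which theca cells lie. Granulosa cells divide, secrete inhibins, activins and anti-Müllerian hormone, and convert androgens from the theca to oestrogens with aromatase. They also signal to the theca through hedgehog ligands, whose receptor patched is itself switched on by the pathway. A high-fat diet with raised testosterone is used in female primates to model features of polycystic ovary syndrome.

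Signals are given in linear array units, with every array scaled by the authors to 1 trimmed mean, and the median probe set signal lay between 20.6 and 23.8 on the 6 arrays. Fold changes are log2 values of signal plus 16, which understates the change of weak probe sets, and adjusted p values are from limma over all 52766 probe sets. Group values are means ± SD of n = 3 arrays. Of all probe sets, 1401 were called higher in WSD+T (2.66%) and 1112 lower (2.11%), and 826 and 494 of these changed at least 2-fold. The called probe sets with 1 gene symbol stood for 1359 genes, of which 3 had probe sets called in both directions. The groups did not overlap for any of the 2513 called probe sets. With 1 probe set per gene, 608 of 14132 genes (4.3%) were called higher and 474 (3.35%) lower, and the groups did not overlap for 33.6% of genes.

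The number of calls depended on single WSD+T arrays, which were closely alike. Replicates 1 and 3 of WSD+T had a median absolute difference of 0.107 log2 units over 14132 genes, against 0.161 and 0.165 for the other WSD+T pairs and 0.194 to 0.238 for the control pairs. No gene had the same value on both arrays and the labels name them as separate biological replicates, so they were kept as replicates. When they were averaged into 1 replicate, 77 probe sets were called (28 higher, 49 lower), and all 77 were among the 2513. Without WSD+T replicate 1, and likewise without replicate 3, 1 probe set was called, of the gene MBLAC2, while 7149 and 7350 had an unadjusted p under 0.05. Without WSD+T replicate 2, 893 were called. A fit to all 9 arrays, which also takes in the spread of the WSD arrays, called 310 (94 higher, 216 lower). The mean variance within a group was 0.0388 in WSD+T, 0.110 in control and 0.194 in WSD. For 93 called probe sets of the genes chosen for description, the direction was the same under every setting in which they were tested. As their groups did not overlap, leaving out or averaging arrays or changing the pseudocount could not have reversed it. The shared direction is therefore no measure of how firm these calls are.

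**Figure D1:**
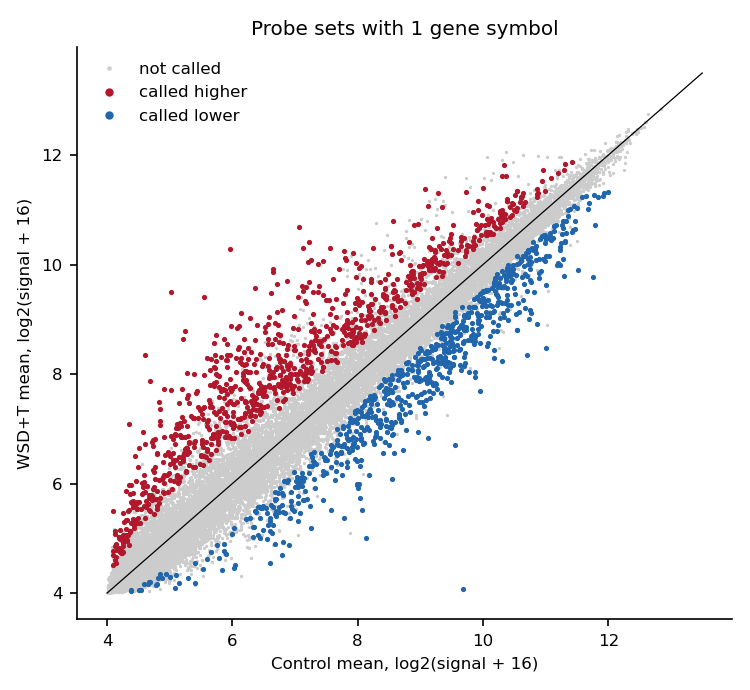
Mean log2(signal + 16) of the 3 WSD+T arrays (vertical) against the mean of the 3 control arrays (horizontal), 1 point per probe set with 1 gene symbol, and a line of equal signal. Probe sets called higher (red) and lower (blue) at an adjusted p of 0.05 or less lie on both sides of the line at nearly all signal levels.

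Markers of the labelled tissue were measured on the control arrays. The granulosa cell inhibin subunit INHA had signals of 957, 2605 and 2535, the theca enzyme CYP17A1 559, 612 and 800.1, and the zona pellucida gene ZP3 of the oocyte 297, 261 and 152, all above the array medians. Of the markers of other cells, the summed signal of 12 macrophage and myeloid genes was 2871 to 11552 on the control arrays and 16962 to 18877 on the WSD+T arrays. The 6 measured smooth muscle and pericyte markers summed to 3182 to 3703 and 5153 to 5439.9. The 12 endothelial markers overlapped between the groups (1859.8 to 2701 and 2473 to 2848). Whole follicles were measured, so fewer cells of a type and less RNA per cell cannot be told apart.

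**Figure D2:**
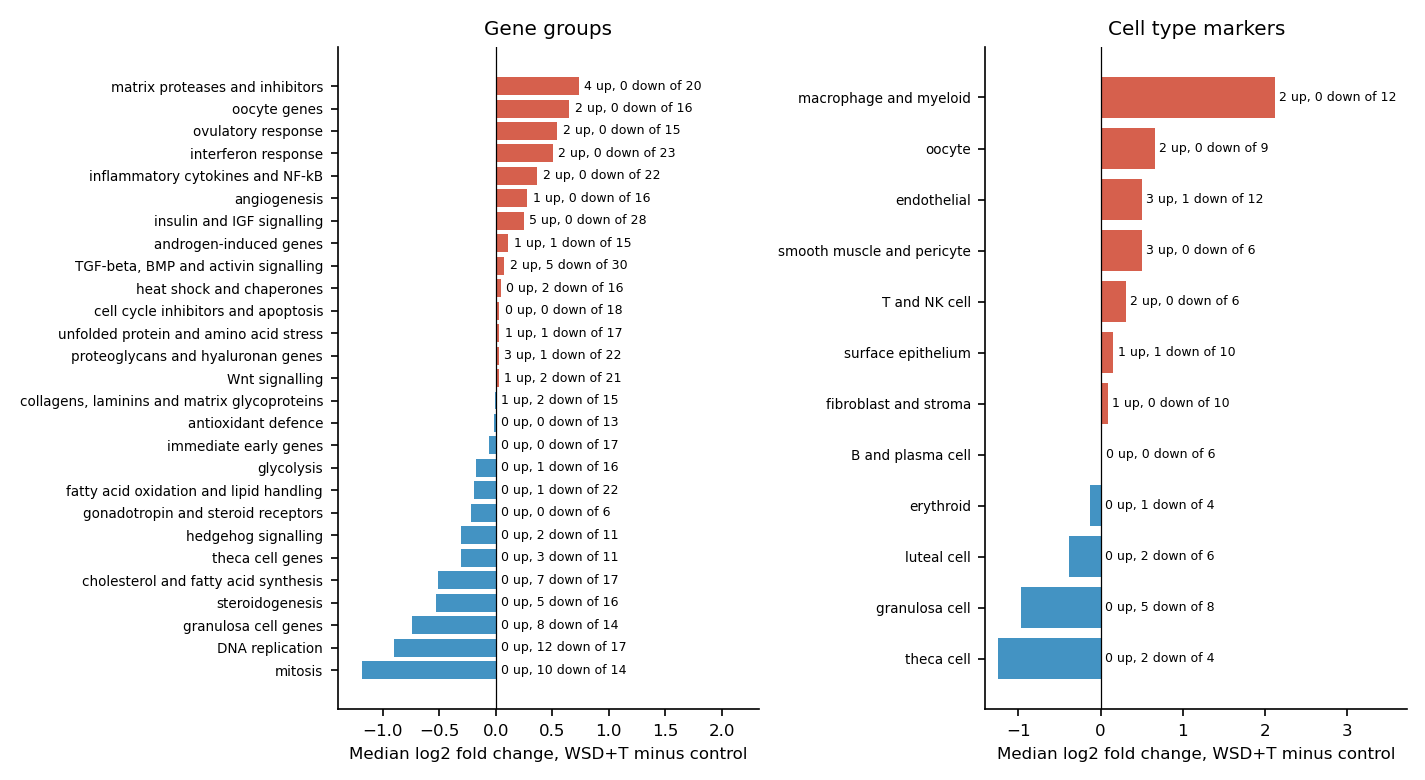
Median log2 fold change (WSD+T minus control) over the measured genes of 27 gene groups (left) and 12 lists of cell type markers (right), with the number of genes called higher (up) and lower (down). Mitosis and DNA replication have the lowest medians on the left (-1.19 and -0.90), and macrophage and myeloid markers the highest on the right (2.12).

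Genes of cell division fell in WSD+T follicles. Of 14 measured mitosis genes, 10 were called lower and none higher, against 3.35% called lower over all 14132 genes. Signals of 12 were lower on every WSD+T array than on every control array. Over all genes, the groups did not overlap, in either direction, for 33.6%. The median log2 fold change was -1.19, against -0.0049 over all genes. MKI67, the Ki-67 antigen of dividing cells, had signals of 444, 736 and 438 on the control arrays and 92.0, 111 and 91.3 on the WSD+T arrays. Every control array was thus far above every WSD+T array. Its mean fell from 539 ± 171 to 98.0 ± 11.0 (-2.25 on the log2 scale, SE 0.21, adjusted p = 0.00491), and its 2 other probe sets pointed the same way. TPX2, a spindle assembly factor, fell from 741, 942 and 755 to 269, 281 and 252 (-1.54 on the log2 scale, SE 0.13, adjusted p = 0.00405). FOXM1, a transcription factor of genes needed for mitosis, fell from 669 ± 77.9 to 227 ± 44.3 (-1.51), and the mitotic cyclin CCNB1 from 2298 ± 227 to 1003 ± 153 (-1.19). The mitosis genes that did not pass at their brightest probe set included the cyclin-dependent kinase CDK1 (log2 fold change -0.16, adjusted p = 0.874) and the kinase AURKA (0.06, adjusted p = 0.844), named after their values were seen. The CDK1 signal spread widely on the control arrays (775, 1869 and 521), and of its 2 other probe sets, both lower, 1 was called (-0.80, adjusted p = 0.0129).

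DNA replication genes fell with them: 12 of 17 were called lower and none higher, against 3.35% of all genes called lower. For 15 the groups did not overlap, against 33.6% of all genes in either direction, and the median was -0.90. The replicative helicase subunit MCM3 had signals of 1602, 1638 and 1471 on control arrays and 568, 725 and 620.5 on WSD+T arrays (-1.28 on the log2 scale, SE 0.12, adjusted p = 0.00464). Its partner MCM2 fell from 730.2 ± 12.8 to 332 ± 34.3 (-1.11). CDC45, which joins the active helicase, fell from 297 ± 11.7 to 128 ± 16.6 (-1.13), and the helicase loader CDC6 from 539.7 ± 72.1 to 222 ± 31.9 (-1.22). No gene of the 18 cell cycle inhibitors and apoptosis genes was called, and their median was 0.03. The fit to all 9 arrays called 7 mitosis and 7 replication genes, averaging WSD+T replicates 1 and 3 left 2 and 2, and leaving out either of those arrays left 0 and 0. The medians stayed between -1.30 and -1.10 for mitosis and between -0.97 and -0.74 for replication under every setting.

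The WSD arrays lay at the WSD+T level for these genes: MKI67 read 122, 78.1 and 108 on them and MCM3 485, 578 and 625. WSD+T minus WSD was -0.04 for MKI67 (SE 0.24, adjusted p = 0.971) and 0.18 for MCM3 (SE 0.14, adjusted p = 0.688), and no gene of either list passed in that comparison. The mean log2 value of the 14 mitosis genes, each centred on its mean over the 6 control and WSD+T arrays, was 0.45, 0.89 and 0.35 on control, -0.67, -0.37 and -0.65 on WSD+T and -0.39, -0.73 and -0.44 on WSD replicates 1 to 3. The same score of 12 macrophage and myeloid markers was 0.38, -1.55 and -1.35 on control, 0.94, 0.72 and 0.86 on WSD+T and 0.82, 1.51 and -2.27 on WSD, and the part of those cells in the decreases was not tested.

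**Figure D3:**
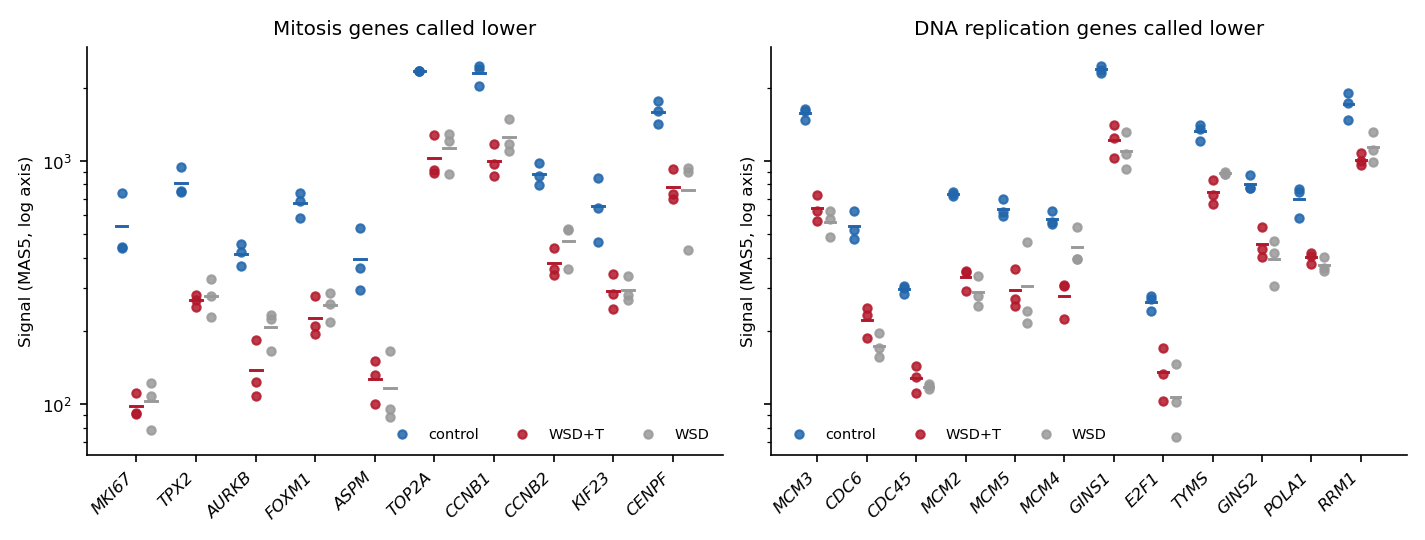
Signal on each array (log axis) of the 10 mitosis genes (left) and 12 DNA replication genes (right) called lower in WSD+T, with a bar at each group mean of 3 arrays. Control points (blue) lie above all WSD+T points (red) for every gene shown, and the WSD arrays (grey), which took no part in the calls, lie near the WSD+T points.

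Granulosa cell hormone genes were lower as a group. Of 14 measured granulosa cell genes, 8 were called lower and none higher (median -0.74), against 3.35% of all genes called lower. INHA, the alpha subunit shared by inhibins A and B, had signals of 957, 2605 and 2535 on the control arrays and 280.1, 343 and 393 on the WSD+T arrays (-2.41 on the log2 scale, SE 0.36, adjusted p = 0.0147). Control replicate 1 was well below the other control arrays but still above all WSD+T arrays. INHBB, the beta-B subunit of inhibin B and activin B, fell from 106, 148 and 158 to 21.0, 19.5 and 21.5 (-2.05 on the log2 scale, SE 0.20, adjusted p = 0.00491), which is near the array median. Its log2 fold change ran from -2.66 to -1.24 over all settings in which it was tested. INHBA, the beta-A subunit, read 1408 ± 50.7 and 1574 ± 149.6 and was not called (0.16 on the log2 scale, SE 0.10, adjusted p = 0.457). The difference between the fold changes of INHBB and INHBA was not tested.

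Anti-Müllerian hormone and the activin-binding protein follistatin were lower too. AMH, which restrains follicle recruitment and growth, had signals of 383, 226 and 336 on the control arrays and 83.7, 159.6 and 118 on the WSD+T arrays (-1.29 on the log2 scale, SE 0.26, adjusted p = 0.0341). FST, follistatin, fell from 2722 ± 287 to 1528 ± 309 (-0.84 on the log2 scale, SE 0.15, adjusted p = 0.0242). In the wider list of TGF-beta, BMP and activin signalling, 5 of 30 genes were called lower and 2 higher (median 0.07, with 3.35% and 4.3% over all genes). The 5 were INHA, INHBB, AMH, FST and SMAD4, the common mediator of the pathway (-0.49). The 2 higher genes were the follistatin-like activin inhibitor FSTL3 (0.92) and the co-receptor TGFBR3 (0.76), which with SMAD4 were named after their values were seen.

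Enzymes of oestrogen and androgen synthesis were lower as well. The steroidogenesis list had 5 of 16 genes called lower and none higher (median -0.53), against 3.35% of all genes called lower. CYP19A1, aromatase, had signals of 185, 587 and 306 on the control arrays and 44.0, 38.1 and 73.9 on the WSD+T arrays (-2.35 on the log2 scale, SE 0.39, adjusted p = 0.0187). The control arrays spread widely, yet none reached down to the WSD+T arrays. HSD17B1, which turns oestrone into oestradiol, fell from 1138 ± 385 to 299 ± 37.2 (-1.83 on the log2 scale, SE 0.22, adjusted p = 0.00892). HSD3B2, which converts pregnenolone to progesterone, fell from 810.1, 1077 and 1040.1 to 172, 207 and 192 (-2.26 on the log2 scale, SE 0.14, adjusted p = 0.00392). CYP17A1, the theca enzyme that makes androgens, fell from 657 ± 127 to 340.3 ± 46.3 (-0.91 on the log2 scale, SE 0.17, adjusted p = 0.0255). The nuclear receptor NR5A2, a regulator of steroid genes in granulosa cells, fell by a smaller amount, from 2557 ± 79.7 to 1763 ± 96.4 (-0.53, SE 0.08).

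STAR, the cholesterol carrier of the first step of steroid synthesis, did not pass: it read 2512 ± 573 in control and 2384 ± 77.4 in WSD+T (-0.05 on the log2 scale, SE 0.16, adjusted p = 0.916). Of 6 measured gonadotropin and steroid receptor genes none was called. The oestrogen receptor ESR1 was weak in both groups, at 17.7 ± 4.51 and 6.06 ± 1.18 (-0.60 on the log2 scale, SE 0.15, adjusted p = 0.0663), and ESR2, the main oestrogen receptor of granulosa cells, read 42.3 ± 9.57 and 30.8 ± 3.19 (adjusted p = 0.462). FSHR, LHCGR, INSR, CYP11A1 and GDF9 were not analysed here.

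Hedgehog signalling from granulosa cells to theca had 2 of 11 genes called lower (median -0.30), against 3.35% of all genes. IHH, Indian hedgehog, a ligand made by granulosa cells, had signals of 628, 956 and 627 on the control arrays and 13.0, 234 and 18.3 on the WSD+T arrays. WSD+T replicates 1 and 3 were near or below the array median while replicate 2 stayed below the lowest control array but well above them. IHH passed despite that spread (-3.56 on the log2 scale, SE 0.73, adjusted p = 0.0371). PTCH1, the receptor and target gene of the pathway, fell from 208, 290.4 and 197 to 60.0, 108 and 46.8 (-1.54 on the log2 scale, SE 0.27, adjusted p = 0.0239), and WSD+T replicate 2 was again the highest of its group. The target genes GLI1 and HHIP, which complete the 4 measured theca markers, were not called at their brightest probe sets (-1.03, adjusted p = 0.160, and -1.45, adjusted p = 0.0914). Both other HHIP probe sets were lower without overlap, and 1 of them was called (-1.90, adjusted p = 0.0342). Of 11 theca cell genes, 3 were called lower, namely CYP17A1, HSD3B2 and PTCH1.

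On the WSD arrays IHH read 25.4, 5.70 and 45.6 and PTCH1 50.0, 29.2 and 67.4, and INHA read 336, 306 and 728. WSD+T minus WSD was 0.72 for IHH (SE 0.73), 0.42 for PTCH1 (SE 0.32) and -0.32 for INHA (SE 0.41), none past the threshold (adjusted p = 0.762, 0.659 and 0.831). The fit to all 9 arrays called 2 of the 14 granulosa cell genes lower, and averaging WSD+T replicates 1 and 3 left none, while the median ran from -1.06 to -0.66 over all settings. Without control replicate 3, 4 of them were called, and without WSD+T replicate 2, 5. Of the steroidogenesis genes, 1 was called in the fit to all 9 arrays, 1 after averaging and 3 without WSD+T replicate 2. No gene of either list was called without WSD+T replicate 1 or 3.

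**Figure D4:**
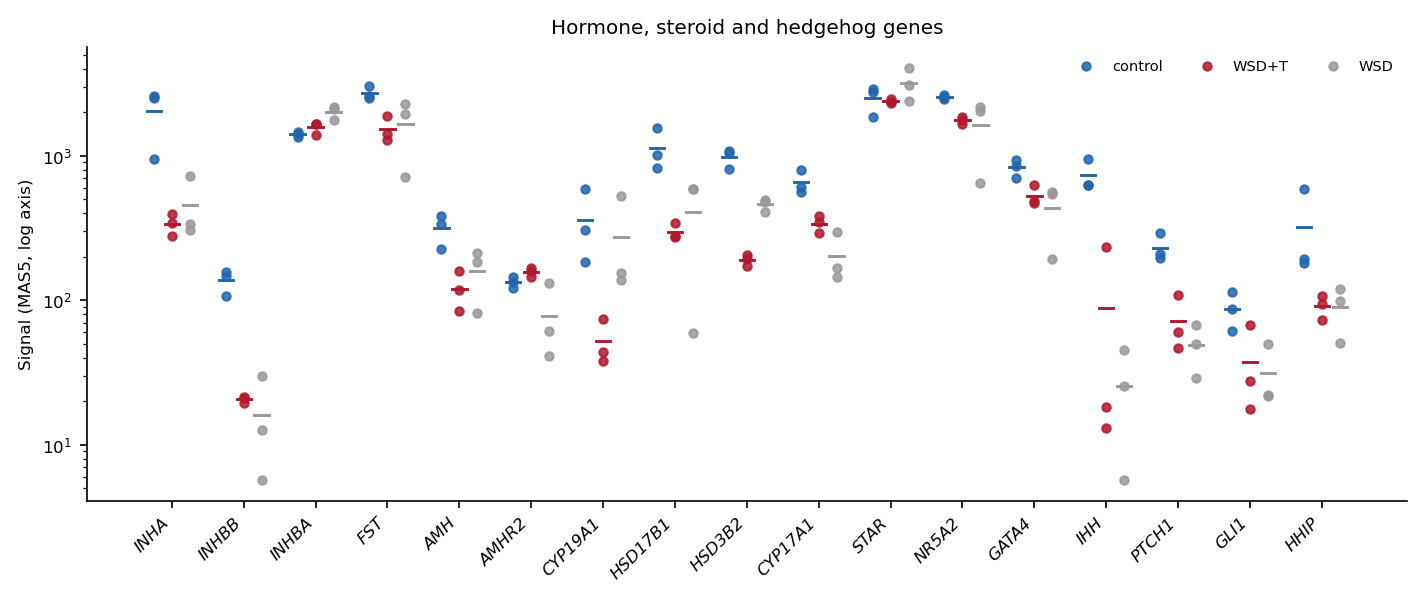
Signal on each array (log axis) of granulosa hormone, steroid synthesis and hedgehog genes in control (blue), WSD+T (red) and WSD (grey) follicles, with a bar at each mean of 3 arrays. INHA, INHBB, AMH, CYP19A1, HSD17B1, HSD3B2, IHH and PTCH1 are lower on every WSD+T array than on every control array, whereas INHBA, AMHR2 and STAR are not.

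Oocyte genes gave calls in the other direction. Of 16 measured oocyte genes, 2 were called higher and none lower, 8 had higher signals on every WSD+T array, and the median was 0.65. Over all genes, 4.3% were called higher, and the groups did not overlap, in either direction, for 33.6%. FIGLA, a transcription factor of zona pellucida genes, had signals of 45.7, 30.1 and 9.96 on the control arrays and 108, 146 and 188 on the WSD+T arrays (1.93 on the log2 scale, SE 0.34, adjusted p = 0.0229). OOEP, a maternal protein of the egg cortex, rose from 121 ± 30.0 to 292 ± 42.8 (1.18 on the log2 scale, SE 0.20, adjusted p = 0.0209). ZP3, of the egg coat, read 297, 261 and 152 on the control arrays and 416, 517 and 442 on the WSD+T arrays, without overlap, and did not pass (0.95 on the log2 scale, SE 0.23, adjusted p = 0.0606). WSD+T minus WSD was 1.56 for FIGLA (SE 0.37, adjusted p = 0.0919) and 1.27 for OOEP (SE 0.33, adjusted p = 0.123). The number of follicles, and so of oocytes, in each pool was not used here.

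Cholesterol and fatty acid synthesis had 7 of 17 genes called lower and none higher (median -0.51), against 3.35% of all genes called lower. SQLE, squalene epoxidase of the cholesterol pathway, had signals of 519.7, 679 and 548 on the control arrays and 199, 216 and 208 on the WSD+T arrays (-1.41 on the log2 scale, SE 0.13, adjusted p = 0.00491). The isoprenoid enzyme IDI1 fell from 781 ± 83.8 to 407 ± 26.1 (-0.91). DHCR7, the last enzyme of cholesterol synthesis, fell from 91.0 ± 3.48 to 28.7 ± 6.69 (-1.27), and ACACA, the first enzyme of fatty acid synthesis, from 537 ± 69.0 to 276 ± 17.9 (-0.92). Of 22 genes of fatty acid oxidation and lipid handling, the lipoprotein assembly gene MTTP alone was called, from 94.9 ± 57.8 to 9.92 ± 4.07 (-1.96 on the log2 scale, SE 0.40, adjusted p = 0.0360). The fit to all 9 arrays called 1 gene of the synthesis list, averaging WSD+T replicates 1 and 3 left none, and omitting WSD+T replicate 2 left 4. Omitting WSD+T replicate 1 or 3 left none.

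Insulin and IGF signalling had 5 of 28 genes called higher and none lower (median 0.25), against 4.3% of all genes called higher. Signals were higher on every WSD+T array for 14 genes of the list. Over all genes, the groups did not overlap, in either direction, for 33.6%. SHC1, an adaptor that links receptor tyrosine kinases to Ras, had signals of 1109.9, 1047 and 1080.0 on the control arrays and 1812, 1754 and 1705 on the WSD+T arrays (0.70 on the log2 scale, SE 0.08, adjusted p = 0.00867). GRB10, an adaptor that inhibits the insulin receptor, rose from 323 ± 68.3 to 675 ± 94.5 (1.04). STC1, an inhibitor of the protease that frees IGFs, rose from 687 ± 82.1 to 1365 ± 166 (0.97). The IGF-binding proteins IGFBP5 (1.36) and IGFBP2 (0.67, named after its value was seen) also rose. The fit to all 9 arrays called 1 gene of the list, averaging WSD+T replicates 1 and 3 left none, and 8 were called without control replicate 1 and 3 without WSD+T replicate 2. Leaving out WSD+T replicate 1 or 3 left none. Several of the called genes restrain the pathway in textbook accounts rather than carry it. In the 15 measured androgen-induced genes, a list known from prostate cells, 1 rose (the ubiquitin ligase HERC3, 0.78) and 1 fell (the centromere gene CENPN, -1.16). Over all genes, 4.3% were called higher and 3.35% lower. FKBP5, a chaperone gene induced by androgens and glucocorticoids, read 127, 68.3 and 50.1 on the control arrays and 79.0, 66.4 and 101 on the WSD+T arrays, which overlap (0.07 on the log2 scale, SE 0.30, adjusted p = 0.936).

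Matrix genes changed in both directions. Of 20 matrix proteases and inhibitors 4 were called higher and none lower (median 0.73), against 4.3% of all genes called higher. ADAMTS5, a protease that cleaves proteoglycans, had signals of 510.0, 378 and 500.4 on the control arrays and 886, 803 and 855 on the WSD+T arrays (0.86 on the log2 scale, SE 0.14, adjusted p = 0.0168). The cysteine protease CTSK (0.83), the stromelysin MMP11 (0.77) and the metalloprotease inhibitor TIMP2 (0.70) also rose. Without control replicate 1, 10 of the 20 were called, without control replicate 3, 2, and without WSD+T replicate 2, 1. The fit to all 9 arrays, averaging WSD+T replicates 1 and 3, and omitting either of those 2 arrays each left none. The centred score of these genes was 0.20, -0.70 and -0.56 on control, 0.39, 0.20 and 0.46 on WSD+T and 0.25, 0.80 and -0.03 on WSD replicates 1 to 3. As in the myeloid score, control replicate 1 was the highest control array and WSD replicate 3 the lowest WSD array, and the part of myeloid cells was not tested. The basement membrane genes LAMA1, a laminin chain, and HSPG2, perlecan, fell. LAMA1 had signals of 508, 588 and 495 on the control arrays and 163, 169.7 and 172 on the WSD+T arrays (-1.56 on the log2 scale, SE 0.12, adjusted p = 0.00405), and HSPG2 fell from 1898 ± 273 to 904 ± 62.3 (-1.05). TNC, the glycoprotein tenascin C of remodelling tissue, rose from 127, 46.3 and 55.1 to 451, 309 and 502 (2.32 on the log2 scale, SE 0.32, adjusted p = 0.0128). The other 12 of 15 measured collagens, laminins and matrix glycoproteins did not pass (median -0.01).

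Among 22 proteoglycan and hyaluronan genes, 3 rose and 1 fell (median 0.03), against 4.3% of all genes called higher and 3.35% lower. ESM1, endocan, a proteoglycan secreted by endothelium and other cells, had signals of 484, 563 and 399 on the control arrays and 124, 95.9 and 101 on the WSD+T arrays (-2.01 on the log2 scale, SE 0.17, adjusted p = 0.00405). The cell surface glypican GPC1 rose from 110.2 ± 31.9 to 351 ± 49.2 (1.56), and the small leucine-rich proteins ASPN and OGN by 1.34 and 0.76. Of 15 genes of the ovulatory response, the transcription factors RUNX1, from 1482 ± 134 to 2589 ± 219 (0.80), and RUNX2, from 843 ± 121 to 1302 ± 57.3 (0.63), rose at their brightest probe sets. Of 6 other RUNX1 probe sets, only 4 pointed the same way and none was called. All 4 other RUNX2 probe sets pointed the same way, and none was called. Of 21 Wnt signalling genes, the inhibitor DKK1 rose from 24.7, 3.99 and 0.261 to 277, 154 and 224 (3.27 on the log2 scale, SE 0.37, adjusted p = 0.00771), while its relative DKK2 fell from 199 ± 63.3 to 55.3 ± 17.5 (-1.59) and the receptor FZD4 from 898 ± 289 to 412 ± 44.6 (-1.05).

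Vessel and muscle genes differed in part, to be read against 4.3% of all genes called higher and 3.35% lower. Of 12 endothelial markers, the endothelial genes EMCN (1.10), VWF (1.14) and CLDN5 (1.14) rose and ESM1 fell. Of 6 smooth muscle and pericyte markers, LMOD1, an actin-nucleating protein of smooth muscle, rose from 141, 150.3 and 137 to 449, 402 and 454 (1.51 on the log2 scale, SE 0.12, adjusted p = 0.00405), TAGLN from 565 ± 63.8 to 1047 ± 67.2 (0.87) and the smooth muscle myosin MYH11 from 1407 ± 251 to 2179 ± 238 (0.63). Of 16 angiogenesis genes, the vasoconstrictor EDN1 alone was called (1.93, SE 0.37, adjusted p = 0.0301). Of 10 fibroblast and stroma markers only OGN was called, and the summed signals of that list overlapped between the groups (13000.0 to 13367 in control and 13180.0 to 15710.0 in WSD+T). Surface epithelium markers had KRT7 higher (1.41 ± 0.267 and 12.9 ± 4.53) and UPK1B lower (-1.45), and 3 of the 10 (CDH1, LRRN4 and MSLN) were under 10 on all 6 arrays.

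The largest increases were of a different kind. The 15 genes with the largest called increases, at a mean of at least 100 in WSD+T, ranged from 3.09 to 4.59 on the log2 scale. Only 2 of them, CSRP3 and MLANA, stayed called when WSD+T replicates 1 and 3 were averaged. ANKRD1, a nuclear ankyrin repeat protein of stretched muscle and a target gene of YAP, had signals of 66.7, 3.51 and 68.0 on the control arrays and 1355, 1027 and 1295 on the WSD+T arrays (4.59 on the log2 scale, SE 0.52, adjusted p = 0.00775). CSRP3, the muscle LIM protein, rose from 27.6, 2.58 and 19.0 to 801, 513 and 797 (4.53 on the log2 scale, SE 0.33, adjusted p = 0.00405). CCL17, a chemokine that attracts T cells, rose from 78.5, 6.35 and 7.68 to 728, 568 and 683 (4.19 on the log2 scale, SE 0.51, adjusted p = 0.00875). PLA2G7, a phospholipase secreted by macrophages, rose from 118 ± 130.0 to 1629.8 ± 209 (4.03), and the monocyte enzyme ADA2 from 124 ± 140.2 to 1253 ± 165 (3.63). MLANA, a melanosome protein, rose from 21.1, 9.90 and 35.3 to 416, 448 and 411 (3.59 on the log2 scale, SE 0.25, adjusted p = 0.00405). Where control signals were weak, the size of the increases and their place in this order depend on the pseudocount. CSRP3, MLANA and DKK1 had a control mean below the median signal. Between pseudocounts of 64 and 1 the log2 fold change ran from 3.24 to 5.76 for CSRP3, from 2.52 to 4.37 for MLANA and from 1.93 to 5.29 for DKK1. FCN1, CAMP and CCL17 had signals under 10 on control replicates 2 and 3. Over all settings in which they were tested, their log2 fold changes ran from 2.23 to 5.05, from 2.33 to 4.85 and from 3.01 to 5.26.

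Several of the rest are genes of blood-derived cells: the class II antigen gene MAMU-DQB1 (3.50), the antimicrobial peptide CAMP (3.49), the monocyte lectin FCN1 (3.43), the haematopoietic actin regulator NCKAP1L (3.24) and MS4A6A of myeloid cells. PLAC8 (3.48), the tudor protein TDRD6 of germ cells (3.28), DKK1 (3.27) and the glycogen phosphorylase PYGL (3.20) complete the 15. Within each group the TDRD6 signals ranked the arrays as the myeloid score did. Whether the TDRD6 signal came from germ cells was not tested. Of 5 other PYGL probe sets, 3 were called higher and 1 lower. The brightest fell without overlap from 1538 to 1177 and did not pass (-0.38, adjusted p = 0.0645). The next brightest was the one called lower, from 1210 to 797 (-0.58, adjusted p = 0.0379). No direction is therefore given for PYGL as a gene. In 13 of these 15 genes control replicate 1 was the highest control array. In all 15, WSD replicates 1 and 2 lay above every control array and WSD replicate 3 below the highest control array. The score of the myeloid markers shared these features.

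The myeloid score, the mean log2 value of 12 marker genes, each centred on its mean over the 6 control and WSD+T arrays, was 0.38, -1.55 and -1.35 on control replicates 1 to 3, 0.94, 0.72 and 0.86 on WSD+T and 0.82, 1.51 and -2.27 on WSD. Over all genes, 4.3% were called higher, and the groups did not overlap, in either direction, for 33.6%. All 12 markers had a positive fold change (median 2.12), and 7 had groups that did not overlap. The test passed for 2 of them, the costimulatory molecule CD86 (1.95, SE 0.42, adjusted p = 0.0424) and the signalling adaptor TYROBP, which had signals of 1118, 243 and 267 on the control arrays and 2233, 2049.9 and 2122 on the WSD+T arrays (2.30 on the log2 scale, SE 0.50, adjusted p = 0.0429). The macrophage protein CD68 read 1353, 66.3 and 228 on the control arrays and 2322, 2217 and 2299 on the WSD+T arrays and did not pass (2.93 on the log2 scale, SE 0.85, adjusted p = 0.0982). Without control replicate 1, 9 of the 12 were called, and none was when any other single control or WSD+T array was left out. The part of myeloid cells in the increases was not tested.

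**Figure D5:**
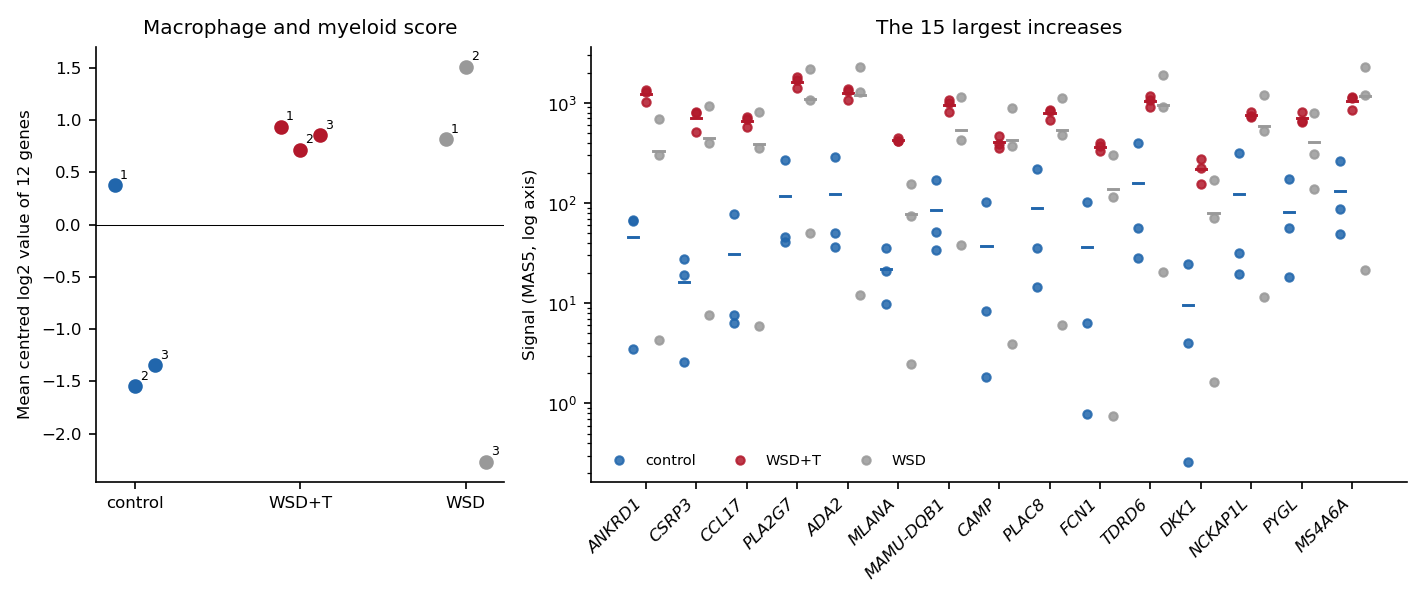
Left, the myeloid score (mean log2 value of 12 marker genes, each centred on its mean over the 6 control and WSD+T arrays) on each array, numbered by replicate. Right, the signal on each array (log axis) of the 15 genes with the largest increases, in control (blue), WSD+T (red) and WSD (grey), with a bar at each mean of 3 arrays. The WSD+T arrays lie close together from 0.72 to 0.94 in score, control replicate 1 stands above the other control arrays, and 1 WSD array lies with the controls for most of these genes.

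Immune signalling genes rose in few cases, to be read against 4.3% of all genes called higher. Of 22 inflammatory cytokine and NF-kB genes, 2 were called higher and none lower (median 0.36): OSM, oncostatin M, a cytokine of the interleukin 6 family, and TNFRSF12A, the receptor of the cytokine TWEAK (1.96, SE 0.39, adjusted p = 0.0325). OSM had signals of 8.18, 0.879 and 4.19 on the control arrays and 147, 88.2 and 127 on the WSD+T arrays (2.74 on the log2 scale, SE 0.24, adjusted p = 0.00464), so it went from below to above the array median. Of 23 interferon response genes, 2 were called higher and none lower (median 0.50), the ubiquitin-like gene UBD (2.14) and the interferon-induced OASL (1.08). Of 6 T and NK cell markers, GZMB, a protease of cytotoxic granules, rose from 78.8 ± 81.6 to 385 ± 71.4 (2.41), and CD4 was called at a low level (9.24 ± 3.89 and 33.7 ± 5.57). Of 6 B and plasma cell markers none was called, and CD79A and TNFRSF17 were under 10 on all 6 arrays. The myeloid score was higher on all the same WSD+T arrays, and its part in these increases was not tested.

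Among the 15 largest decreases, besides IHH, INHA, CYP19A1, HSD3B2, MKI67 and INHBB, the biggest was at a probe set of MBLAC2, a thioesterase, with signals of 1048, 794 and 584 on the control arrays and 1.16, 0.633 and 0.566 on the WSD+T arrays (-5.58 on the log2 scale, SE 0.22, adjusted p = 0.000425). The 4 other MBLAC2 probe sets disagreed. 1 was called higher, with a mean of 8.40 in control and 311 in WSD+T (3.80), 1 overlapped between the groups (0.50), and the other two were lower without overlap and did not pass (-0.98, adjusted p = 0.0663, and -0.41, adjusted p = 0.218). On the WSD arrays the first probe set read 2557, 3518 and 1.93, so 1 WSD array shared the near absence of signal. No direction is therefore given for the gene.

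GABRP, a GABA receptor subunit, fell from 122, 388 and 282 to 13.0, 20.8 and 14.1 (-3.00 on the log2 scale, SE 0.37, adjusted p = 0.00910), and PAGE1, of a family of germ cell antigens, from 276, 297 and 183 to 6.57, 72.8 and 9.66 (-2.82 on the log2 scale, SE 0.49, adjusted p = 0.0228). Over all settings in which they were tested, the log2 fold change ran from -3.84 to -1.945 for GABRP and from -3.77 to -1.80 for PAGE1. CRYGD, a gamma crystallin of the lens, fell from 2865, 3188 and 4226 to 497, 1586 and 505 (-2.17), with WSD+T replicate 2 the highest of its group for PAGE1 and CRYGD as for IHH. HSF4, a heat shock transcription factor, fell from 409, 436 and 375 to 83.1, 95.0 and 66.6 (-2.12 on the log2 scale, SE 0.15, adjusted p = 0.00405). Its other probe set, near the array median, overlapped between the groups (-0.08, adjusted p = 0.893). Called probe sets of the deubiquitinase USP21 (-2.05), the phosphorylase kinase subunit PHKA2 (-2.04) and the tRNA methyltransferase TRMT2B (-2.19) fell too. Of 3 other USP21 probe sets, all lower, 1 was called (-1.49). The remaining USP21 probe sets changed less and did not pass (-0.37, adjusted p = 0.159, and -0.46, adjusted p = 0.0963). The other TRMT2B probe set overlapped between the groups (-0.36, adjusted p = 0.497). DNAJB1, an HSP40 co-chaperone, fell at both its probe sets (-2.28 and -1.05). Of 16 heat shock and chaperone genes, DNAJB1 and HSF4 were the 2 called (median 0.04), against 3.35% of all genes called lower.

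Stress and energy genes gave few calls, to be read against 4.3% of all genes called higher and 3.35% lower. Of 17 genes of the unfolded protein and amino acid stress response, the asparagine synthetase ASNS rose from 161 ± 13.8 to 383 ± 135 (1.12) and PHGDH, the first enzyme of serine synthesis, fell from 285 ± 40.1 to 133 ± 8.29. Of 16 glycolysis genes GAPDH fell by a small amount, from 2040.1, 2091 and 2288 to 1562, 1484 and 1489.6 (-0.50 on the log2 scale, SE 0.09, adjusted p = 0.0221). None of 17 immediate early genes and none of 13 antioxidant defence genes was called, with medians of -0.06 and -0.02. Of 4 measured erythroid markers, HBB was called lower (-1.36), but a probe set annotated to USP14, a deubiquitinase, tracked it closely, at 465, 739 and 566 against 569.8, 874 and 641 on the control arrays and 213, 252 and 164 against 267, 309 and 204 on the WSD+T arrays, so its gene is uncertain. AHSP was under 10 on all 6 arrays.

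Set directly against the diet alone, WSD+T follicles differed at 278 of 52766 probe sets (0.527%), 186 higher and 92 lower than WSD. Of these, 52 were also called against control in the same direction. Of the 93 named probe sets called against control, 4 passed here. HSD3B2 had signals of 482, 498 and 408 on the WSD arrays, between control and WSD+T, and WSD+T minus WSD was -1.21 (SE 0.16, adjusted p = 0.0258). OSM read 5.42, 1.69 and 2.20 on the WSD arrays, as low as in control, and was higher in WSD+T by 2.82 (SE 0.22, adjusted p = 0.0124). TNC read 44.6, 66.4 and 78.7 on them and was higher in WSD+T by 2.46 (SE 0.34, adjusted p = 0.0288). The last was the HBB probe set. Aromatase, CYP19A1, read 524, 139 and 154 in WSD, all above the WSD+T arrays, and did not pass (-1.87, SE 0.52, adjusted p = 0.137). Without WSD+T replicate 1, and without WSD replicate 1, no probe set was called in this comparison (5133 and 6081 at an unadjusted p under 0.05), and without WSD replicate 2 or 3, 839 and 849 were.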

How the data were processed

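Each sample was hybridised to 1 single-colour Affymetrix rhesus array after NuGEN 3' amplification, per the labels. The authors deposited 1 signal intensity per probe set on a linear scale, from MAS5 (version not given) per the submitters' processing notes. They had scaled the arrays to a common level, since all share a mean of 200.01 once the outer 2% of values are left out. Detection calls were not used here, and the genome build is not given in the sources used here. Symbols came from the array annotation (24956 probe sets with 1 symbol, 361 with several, 27449 with none), of which 24616 had an Entrez ID in a RefSeq table. The number of arrays limits the precision.

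The 3 control and 3 WSD+T arrays were fitted with limma 3.58.1 in R 4.3.3 (lmFit, eBayes with a trend, 4 residual and 3.89 prior degrees of freedom) on log2(signal + 16), with no filter, and Benjamini-Hochberg adjustment at 0.05. WSD+T minus WSD came from 1 fit to all 9 arrays. Named genes are the 15 largest called changes in each direction with a mean of at least 100 in the higher group, the 4 called genes of lowest p in each list, and a short set of hormone, receptor, oocyte and division genes whatever their p. For the 15 largest changes, each gene was taken at its called probe set with the smallest p. That choice favours the calls, and the probe set is not always the gene's brightest or most changed. Lists use each gene's probe set with the highest mean. The 39 lists held 491 measured genes of 668. The members and lists were chosen with earlier results of these data known. Tested on simulated data with 52766 probe sets, the WSD+T against control fit recovered 5, 23, 40 and 50 of 50 changes of 1.5-, 2-, 4- and 8-fold, with 4 false among 122 calls. The simulated arrays were independent, with 1 SD per probe set for both groups, and only probe sets above the median control level were changed. The unequal spread of the groups and the likeness of WSD+T replicates 1 and 3 were not simulated. The share of false calls on the real arrays is therefore not known from it. Alternatives were other pseudocounts, filters, normalizations, variance models, a replicate block, all 9 arrays, averaged replicates and leaving out each array. Figures used matplotlib 3.10.9 in Python 3.11.15.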

Additional observations from a re-analysis of the deposited data

How the results depend on the processing

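Against control, the counts of 1401 higher and 1112 lower probe sets stayed within 1.5 times under other pseudocounts, filters, variance models and normalizations. They were 94 and 216 with all 9 arrays, and 28 and 49 with WSD+T replicates 1 and 3 averaged. Leaving out 1 array gave 0 to 2374 higher and 1 to 1337 lower. The 0 came without WSD+T replicate 1 or 3, in limma fits with 7149 and 7350 probe sets at an unadjusted p under 0.05, and the most came without control replicate 1. Omitting control replicate 2 or 3 gave 850 or 738 higher, and omitting WSD+T replicate 2 gave 396. Of the 93 named called probe sets, 22 remained called with all 9 arrays, 15 with the averaged replicates, 54 when WSD+T replicate 2 was omitted, and 1 when replicate 1 or 3 was. At least 82 did so under the other pseudocounts, variance models, normalizations and the block. The cause was not tested.

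The replicate numbers were not taken to pair the samples. The residuals of same-numbered control and WSD+T arrays correlated at 0.146, 0.0936 and -0.111. They were not compared with those of differently numbered arrays, so whether the numbers mark pairs was not tested. With the number as a replicate block, 1164 probe sets were higher and 745 lower, and 85 of the 93 remained called.

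For WSD+T against WSD, with alternatives chosen after seeing the data, 278 became 771 with a filter at the median signal, 679 without a trend, 1 with the replicate block, and 0 to 849 when 1 array was left out (0 without WSD+T replicate 1 or WSD replicate 1, 849 without WSD replicate 3). Leaving out 1 control array gave 63 to 73. Detection calls were not used here, so weak signals near the array median are uncertain.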

Other observations

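Values of some genes outside the lists, picked after they were seen, extend the account. Class II antigen genes other than MAMU-DQB1 differed less surely: MAMU-DMA rose (2.06, SE 0.45, limma's adjusted p = 0.0429), while MAMU-DRA (1.59, adjusted p = 0.0636), MAMU-DPA (2.44, adjusted p = 0.0839), MAMU-DQA1 (1.34, adjusted p = 0.202, groups overlapping) and the invariant chain CD74 (1.80, adjusted p = 0.0927) did not pass at their brightest probe sets. 1 of 2 other MAMU-DRA probe sets was called higher. MAMU-DPA read 1179, 143 and 178 on the control arrays, 1899, 1621 and 1875 on WSD+T and 1499, 2805 and 359 on WSD, with control replicates 2 and 3 and WSD replicate 3 lowest, as for the myeloid score. The calcium-binding protein S100A2 rose from 149.6 ± 105 to 1020.4 ± 91.1 (2.82, SE 0.37, adjusted p = 0.0111).

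Some genes were called higher in WSD+T against both control and WSD. NHLH2, a neuronal transcription factor, read 4.87, 5.01 and 13.9 on the control arrays, 27.4, 15.3 and 11.7 on WSD and 115, 107 and 97.0 on WSD+T (limma's adjusted p = 0.00483 and 0.0245). TDO2, the tryptophan-degrading dioxygenase, read 70.1, 13.7 and 18.0, 20.4, 41.8 and 7.34 and 278, 171 and 173 (adjusted p = 0.0231 and 0.0487). The transcription factor GATA2 read 110.2, 74.0 and 90.1, 68.1, 74.1 and 29.9 and 199, 180.1 and 233 (adjusted p = 0.0216 and 0.0469). PVALB, the calcium buffer parvalbumin, rose against control (2.65, SE 0.21, adjusted p = 0.00405) and did not pass against WSD (adjusted p = 0.0817).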
